A study of Mus musculus with 15 samples.

Results

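The lymphatic endothelial markers examined were 5 genes, Prox1, Lyve1, Pdpn, Reln and Mmrn1, taken by name from a table of 53465 mouse genes. Each name matched a single row. The table held RNA sequencing of 15 libraries, 5 from each of 3 cell populations that together form a proposed endothelial hierarchy. These were endovascular progenitors (EVP), transit amplifying cells (TA) and definitive differentiated cells (D). All were sorted as GFP+ cells from melanomas grown in CAG-GFP mice, which express the green fluorescent protein ubiquitously, so that GFP marked cells of the host. The tumors were grown from B16-F0 cells, a mouse melanoma line. The study as a whole used adult mice of both sexes, and the sex of the mice behind these libraries was not given. Tumors were collected on day 15. The sorted cells were lineage negative and CD34+, and were split by 2 surface proteins into CD31 low, VEGFR2 low cells (EVP), CD31 intermediate, VEGFR2 low cells (TA) and CD31 high, VEGFR2 high cells (D). All 3 populations shared the tumor model, the mouse line and the day. Nothing in the sample labels said that libraries of 1 population came from separate animals, so p-values measure the spread between these libraries, which may be technical. RNA was amplified with a modified Smart-Seq2 protocol, and the libraries held 5394356 to 26513073 reads on genes (median 19049194). The values below are read counts divided by the size factor of each library, called normalized counts.

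Lymphatic endothelium lines the vessels that return fluid and immune cells from tissue to blood. During development it arises mainly from veins, where the homeobox transcription factor Prox1 switches venous endothelial cells to the lymphatic fate, and its growth is driven by VEGF-C acting on VEGFR3. Tumors can grow lymphatic vessels, which serve as a route of spread to lymph nodes. Of the other members, Lyve1 is a hyaluronan receptor of lymphatic capillaries, Pdpn (podoplanin) a membrane glycoprotein that binds CLEC-2 on platelets, Reln a large secreted glycoprotein and Mmrn1 (multimerin 1) a secreted protein of the EMILIN family. Each is also made elsewhere. Lyve1 is found on some tissue macrophages, Pdpn is abundant in many fibroblasts, Reln is best known from the developing brain, and Mmrn1 is stored in platelets.

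In the coordinates of GRCm38, Prox1 (ENSMUSG00000010175) lies on the minus strand of chromosome 1 from 190118035 to 190170714, and its merged exons span 8390 bases. Lyve1 (ENSMUSG00000030787) lies on the minus strand of chromosome 7 from 110850607 to 110863239, with 2919 exon bases. Pdpn (ENSMUSG00000028583) lies on the minus strand of chromosome 4 from 143267431 to 143299564, with 1817 exon bases. Reln (ENSMUSG00000042453) spans 460249 bases of the minus strand of chromosome 5, from 21884454 to 22344702, with 23738 exon bases. Mmrn1 (ENSMUSG00000054641) lies on the plus strand of chromosome 6 from 60924976 to 60989378, with 5868 exon bases. Exons of Prox1 overlap the antisense gene Prox1os by 133 bases, and those of Reln overlap the antisense gene Gm10475 by 246 bases. Smart-Seq2 does not keep the strand, so reads of these stretches cannot be told apart from those of the antisense gene. Prox1os had 0 reads in all 15 libraries.

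RefSeq promoter windows (build GRCm38.p6) were at hand for 4 of the 5 members. The windows of Pdpn and Mmrn1 are printed because these members differed most, and in opposite directions, between EVP and D. Each shows the 250 bases before the RefSeq start, read 5′ to 3′ along the gene. The Pdpn window is chr4:143299565-143299814 on the minus strand and the Mmrn1 window chr6:60944067-60944316 on the plus strand. The Mmrn1 window lies inside the gene as the table bounds it, and its RefSeq start is 159 bases from the start of the nearest annotated coding transcript. Capitals mark matches to the SOX motifs AACAAT and AACAAAG, which share their first 5 letters, the AP-1 motif TGANTCA, the ETS motif CCGGAA or the GATA motif AGATAA, searched on both strands.
Pdpn: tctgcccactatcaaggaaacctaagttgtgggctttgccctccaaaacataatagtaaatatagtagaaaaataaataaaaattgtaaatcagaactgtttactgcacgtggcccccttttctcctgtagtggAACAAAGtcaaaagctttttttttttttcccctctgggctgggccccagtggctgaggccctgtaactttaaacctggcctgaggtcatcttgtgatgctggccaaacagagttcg
Mmrn1: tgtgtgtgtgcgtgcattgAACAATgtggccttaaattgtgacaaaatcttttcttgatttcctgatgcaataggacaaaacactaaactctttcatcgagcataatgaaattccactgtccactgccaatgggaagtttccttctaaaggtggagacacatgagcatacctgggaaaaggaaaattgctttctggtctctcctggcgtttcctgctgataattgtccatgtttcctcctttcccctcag
The Pdpn window held 1 match, to AACAAAG, which starts 116 bases before the RefSeq start, and 5.03% of 32851 windows of the same length held that motif. The Mmrn1 window also held 1 match, to AACAAT, which starts 231 bases before the RefSeq start, and 9.42% of all windows held it. No match to another of these motifs was found in either window. TGANTCA was in 6.75% of all windows, CCGGAA in 12.0% and AGATAA in 9.99%. The GC content was 43.2% for Pdpn and 42.4% for Mmrn1. A match describes the letters only.

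The libraries differed in background. Olfactory receptor genes, which should be silent in these cells, served as a gauge. Between 2.70% and 96.2% of 1406 such genes had a read, and their summed level ran from 0.0613 to 40.1 normalized counts per kb of exon. The highest was EVP replicate 1, which was also the shallowest library. In 6 libraries over 50% of these genes had a read, namely EVP replicates 1 and 2, TA replicates 1, 2 and 3 and D replicate 1. Each member's level per kb is therefore set beside that gauge in the same library. As few as 1.81 and as many as 10.5 normalized counts corresponded to 3 reads, the floor used as the limit of detection.

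The sort labels were checked on 8 genes of blood and pan-endothelial cells, including Pecam1, which encodes CD31. Their summed level ran from 1907 to 3410 normalized counts in EVP, from 5217 to 53021 in TA and from 72361 to 117310 in D. Of the EVP sums, Tek alone held 1053, 2193, 1723, 2335 and 585 in replicates 1 to 5. It held 237 to 924 in TA and 1689 to 3373 in D, so it was not lower in EVP than in TA. Cdh5 ran from 18.3 to 183 in EVP and from 7196 to 13383 in D. Since CD31 was used in the sort, Pecam1 is no independent check. All 8 genes had reads in every population. A list of 7 fibroblast genes ran the other way, from 718250 to 1300000 in EVP, from 161350 to 511420 in TA and from 833 to 3260 in D. Although the sort was for GFP+ cells of the host, 6 melanoma genes were also present. They summed to 29702 to 67272 in EVP, 69248 to 175670 in TA and 18157 to 47767 in D. A list of 8 mural genes summed to 7277 to 33899 in EVP, 6139 to 155020 in TA and 5165 to 10852 in D. The source of these reads was not tested. In such bulk samples, fewer cells of a type and less RNA per cell cannot be told apart.

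Between EVP and D, 3 of the 5 members passed the test. Pdpn was 90.5-fold higher in EVP, while Lyve1 was 14-fold and Mmrn1 34.6-fold higher in D. Prox1, the transcription factor that defines the lymphatic fate, and Reln did not pass. Across all 25549 genes tested, 11.6% passed as higher in EVP and 7.46% as higher in D, beside 1 and 2 of the 5 members. The libraries of EVP and D did not overlap for 2 members, Pdpn and Lyve1, and for 17.7% of all genes. The median log2 fold change (EVP over D) was −0.59 over the members and 0.46 over all tested genes. With 5 members that median is the value of 1 gene, Reln, and shows no shift of the set. The members ran from −5.11 (Mmrn1) to 6.50 (Pdpn). These tests were run in limma on log2(normalized count + 1) with Benjamini-Hochberg adjusted p-values, and the folds are on that scale. As ratios of the mean normalized counts, D was 7.84-fold above EVP for Lyve1 and 8.48-fold for Mmrn1.

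**Figure D1:**
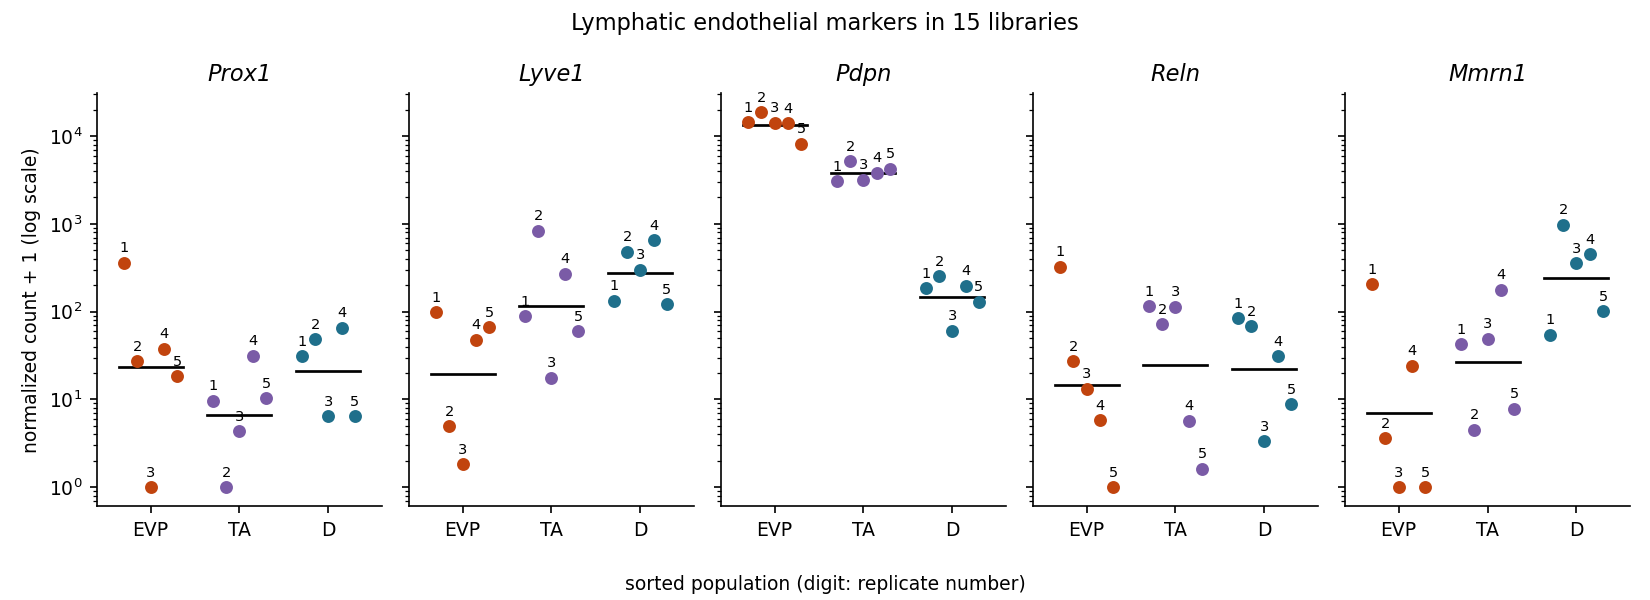
Normalized counts plus 1, on a log scale, of the 5 members in each of the 15 libraries, grouped by sorted population. Digits are replicate numbers and bars the mean on the log scale. Pdpn falls from EVP to TA to D with no overlap, whereas Prox1, Reln and Mmrn1 each have a single EVP library, replicate 1, far above the other 4.

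Prox1 was low in all populations. The EVP libraries held 362, 26.1, 0, 36.8 and 17.3 normalized counts in replicates 1 to 5. The TA libraries held 8.62, 0, 3.35, 30.6 and 9.34 normalized counts of Prox1. The D libraries held 30.2, 47.3, 5.47, 64.6 and 5.44. The populations overlapped, and EVP replicate 1 alone supplied 81.9% of the EVP sum. Without it the mean of the other 4 EVP libraries was 20 instead of 88.4, beside 30.6 ± 26 in D (SD, n = 5) and 10.4 ± 11.9 in TA (SD, n = 5). In EVP replicate 1 the level per kb was 1.07 times that of the olfactory receptor genes. Prox1 lay above that gauge in 4 of 5 EVP, 2 of 5 TA and 4 of 5 D libraries, and it reached 92.1 times the gauge in D replicate 4. At this depth no difference of Prox1 between populations was detectable. The log2 fold change of EVP over D was 0.14 ± 1.29 (SE), with a 95% interval from −2.57 to 2.86 and an adjusted p of 0.956 in limma. That of EVP over TA was 1.79 (95% interval −0.92 to 4.51, limma adjusted p = 0.605), and that of TA over D −1.65 (−4.36 to 1.07, limma adjusted p = 0.526). These intervals leave room for several-fold differences either way. The sign was not stable either. EVP over D was −0.85 without EVP replicate 1, and −1.11 without the 6 libraries of high background, a set chosen after the data were seen. Without those 6 libraries EVP over TA was −1.03.

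Lyve1 was higher in D than in EVP. The D libraries held 132, 483, 299, 656 and 121 normalized counts. The EVP libraries held 98.3, 3.92, 0.818, 47.2 and 65.7. The lowest D library, replicate 5, lay above the highest EVP library, replicate 1, by a small margin. In EVP 2 of 5 libraries were at or under the floor of 3 reads. Per kb, Lyve1 was 0.839 times the olfactory receptor gauge in EVP replicate 1 and 0.927 times in EVP replicate 2. It lay above that gauge in 3 of 5 EVP and 5 of 5 D libraries. The difference was 3.81 ± 1.1 (SE) on the log2 scale in favor of D (95% interval 1.48 to 6.14, adjusted p = 0.0203, limma). The call was lost in edgeR (adjusted p = 0.0716) and on leaving out EVP replicate 2 (0.0608), EVP replicate 3 (0.0575), D replicate 2 (0.0523) or D replicate 4 (0.0579). It held without the 6 libraries of high background (adjusted p = 0.0241 in limma).

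The TA libraries held 87.9, 832, 16.7, 269 and 58.5 normalized counts of Lyve1. They overlapped both other populations. TA did not pass against EVP (log2 difference of EVP over TA −2.57, 95% interval −4.90 to −0.24, limma adjusted p = 0.259) or against D (TA over D −1.24, interval −3.57 to 1.09, limma adjusted p = 0.596). Replicate 2 held 65.8% of the TA sum. In that library the ratio of Lyve1 to Mmrn1 was 184, whereas it lay between 0.492 and 2.44 in the D libraries. Since Lyve1 is also a macrophage gene, 10 macrophage genes were summed. Their sum was 5594 normalized counts in TA replicate 2, within the TA range of 4163 to 18147, and the highest sum, in TA replicate 4, came with a Lyve1 level of 269. In EVP the macrophage sum ran from 1191 to 5221 and in D from 1791 to 5940, with overlap. Of the same list, Mrc1 ran from 92.4 to 431 in EVP and from 212 to 598 in D. Csf1r ran from 327 to 628 in EVP and from 54.7 to 284 in D. All 10 macrophage genes had reads in each population. The part of the macrophage and keratinocyte lists in the Lyve1 values was not tested.

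Mmrn1 was the other member higher in D. The D libraries held 53.5, 983, 356, 451 and 101 normalized counts. The EVP libraries held 204, 2.61, 0, 23.2 and 0. The TA libraries held 41.4, 3.52, 48.0, 177 and 6.85. In EVP 3 of 5 libraries were at or under the floor of 3 reads. EVP replicate 1, the outlying library, lay above D replicates 1 and 5, and the other 4 EVP libraries lay below every D library. Per kb, Mmrn1 in EVP replicate 1 was 0.864 times the olfactory receptor gauge, whereas in D replicates 2 to 5 it was 281 to 918 times that gauge. The log2 difference was 5.11 ± 1.36 (SE) in favor of D (95% interval 2.24 to 7.99, adjusted p = 0.0119, limma). The call was lost in edgeR (log2 fold change of EVP over D −3.39, adjusted p = 0.152) and in DESeq2 (−3.11, adjusted p = 0.0859), both run on whole reads, and it held without the libraries of high background (−6.95, limma adjusted p = 0.00402).

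Between TA and D the same direction did not pass for Mmrn1, with TA over D at −3.21 (95% interval −6.08 to −0.33, limma adjusted p = 0.154). It passed when replicate 1 of every population was left out (−3.92, limma adjusted p = 0.0402). EVP over TA was −1.90 (interval −4.78 to 0.97, limma adjusted p = 0.602). Mmrn1 is a platelet protein, so 6 platelet and megakaryocyte genes were summed. They ran from 449 to 682 normalized counts in EVP, from 766 to 2633 in TA and from 525 to 840 in D, with EVP and D overlapping. The sum hid genes that ran in opposite directions. Ppbp held 2.07 to 10.5 in EVP and 10.3 to 210 in D. Itga2b held 158 to 431 in EVP and 87.6 to 193 in D. None of the 6 was at 0 throughout a population, and their part in the Mmrn1 values was not tested.

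Pdpn was the most abundant member and the one that separated the populations fully. The EVP libraries held 14311, 18726, 14199, 14119 and 8163 normalized counts. The TA libraries held 3049, 5149, 3193, 3832 and 4269. The D libraries held 184, 252, 59.4, 196 and 129. No library of a population reached into the range of another. The log2 fold change was 6.50 ± 0.32 (SE) for EVP over D (95% interval 5.83 to 7.17, adjusted p = 2.60e-10, limma). It was 1.81 ± 0.32 for EVP over TA (interval 1.15 to 2.48, limma adjusted p = 0.00483), a 3.51-fold difference. It was 4.69 ± 0.32 for TA over D (interval 4.02 to 5.36, limma adjusted p = 4.00e-08), a 25.8-fold difference. The differences from D passed under every alternative run. The difference between EVP and TA passed in all but the one without the 6 libraries of high background, which left only 2 TA libraries (1.54, limma adjusted p = 0.316).

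The 7 fibroblast genes (Pdgfra, Col1a1, Col3a1, Dcn, Lum, Dpt and Pi16) moved with Pdpn across the populations, with the ranges given above, and their part in the Pdpn values was not tested. All of them had reads in each population. In D the fibroblast sum of 833 to 3260 normalized counts stood beside 59.4 to 252 of Pdpn. The library with the lowest sum, replicate 3, also had the lowest Pdpn. The highest sum, 3260 in replicate 5, came with 129 of Pdpn, and the highest Pdpn, 252 in replicate 2, with a sum of 1578.

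**Figure D2:**
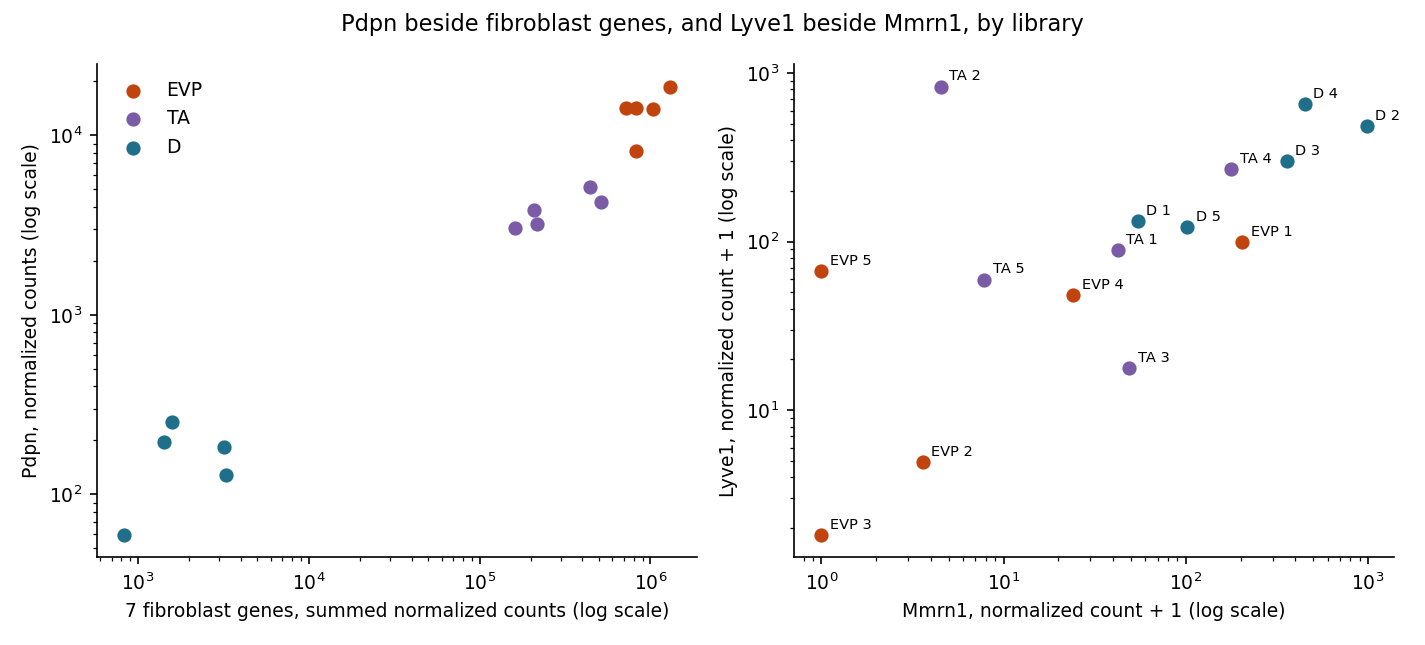
Left, normalized counts of Pdpn against the summed normalized counts of 7 fibroblast genes; right, normalized counts plus 1 of Lyve1 against those of Mmrn1; each point is 1 of 15 libraries and all axes are log scales. Pdpn and the fibroblast genes separate the 3 populations in the same order, and TA replicate 2 stands apart at 832 Lyve1 and 3.52 Mmrn1.

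Reln was low and did not separate the populations. The EVP libraries held 323, 26.1, 12.3, 4.80 and 0 normalized counts. The TA libraries held 114, 71.2, 113, 4.70 and 0.623. The D libraries held 83.7, 66.9, 2.35, 30.1 and 7.86. All 3 populations overlapped, and EVP replicate 1 supplied 88.2% of the EVP sum. Reln lay above the olfactory receptor gauge in 2 of 5 EVP, 2 of 5 TA and 3 of 5 D libraries, and in EVP replicate 1 its level per kb was 0.339 times the gauge. The log2 fold change was −0.59 for EVP over D (95% interval −3.72 to 2.54, limma adjusted p = 0.844), −0.74 for EVP over TA (−3.87 to 2.39, limma adjusted p = 0.943) and 0.14 for TA over D (−2.99 to 3.27, limma adjusted p = 0.974). No difference was detectable at this depth, and the sign of each changed under other settings.

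**Figure D3:**
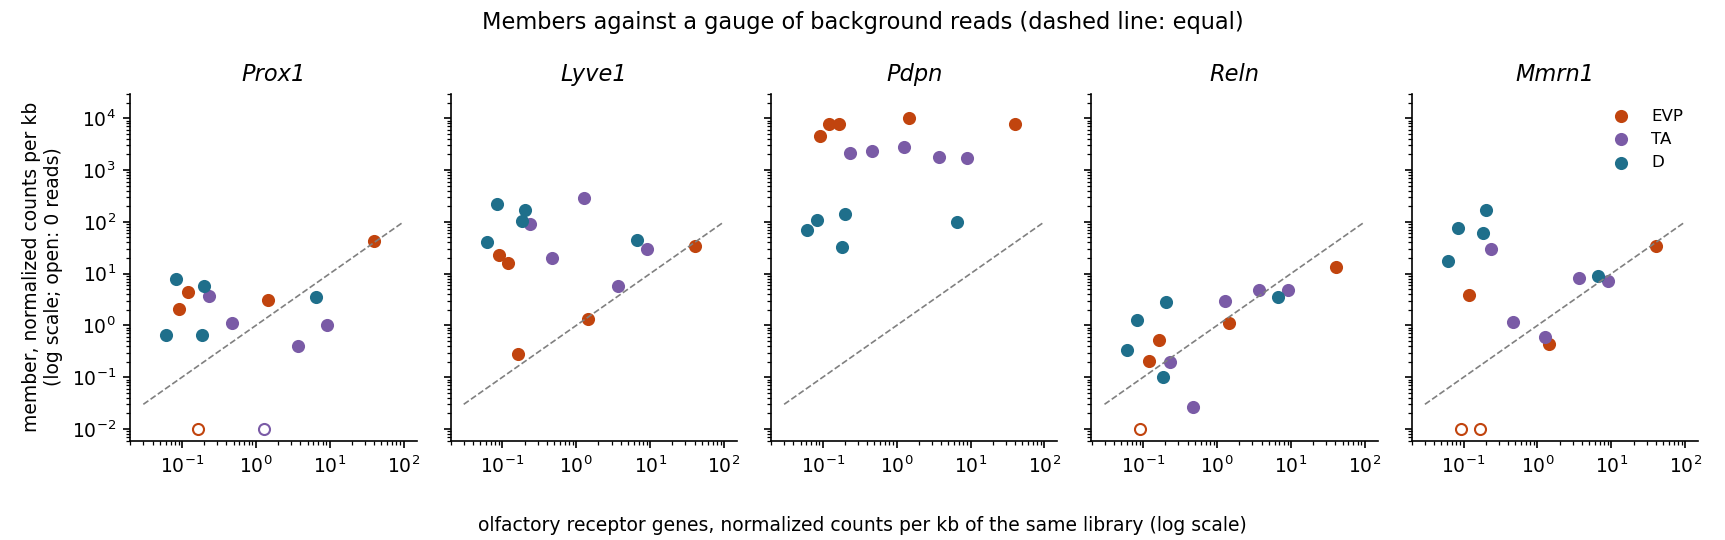
Normalized counts per kb of each member against those of the olfactory receptor genes in the same library, on log scales, with a dashed line where both are equal and open points for members with 0 reads. Pdpn lies far above the line in all 15 libraries, and the rightmost point, EVP replicate 1, lies near or under the line for Prox1, Lyve1, Reln and Mmrn1.

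Between EVP and TA, Pdpn was the only member that passed, as higher in EVP, where 1.56% of all genes tested passed as higher in EVP and 1.94% as higher in TA. It was also the only member without overlap, against 4.29% of all genes. Between TA and D, Pdpn again was the only member to pass, as higher in TA, where 8.21% of all genes passed as higher in TA and 4.31% as higher in D. It alone did not overlap, against 9.25% of all genes. The median log2 fold change over the members was −0.74 for EVP over TA and −1.24 for TA over D, beside 0.09 and 0.24 over all tested genes. These medians are the values of single genes that did not pass, Reln and Lyve1. The 3 comparisons share libraries and are not independent of each other.

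**Figure D4:**
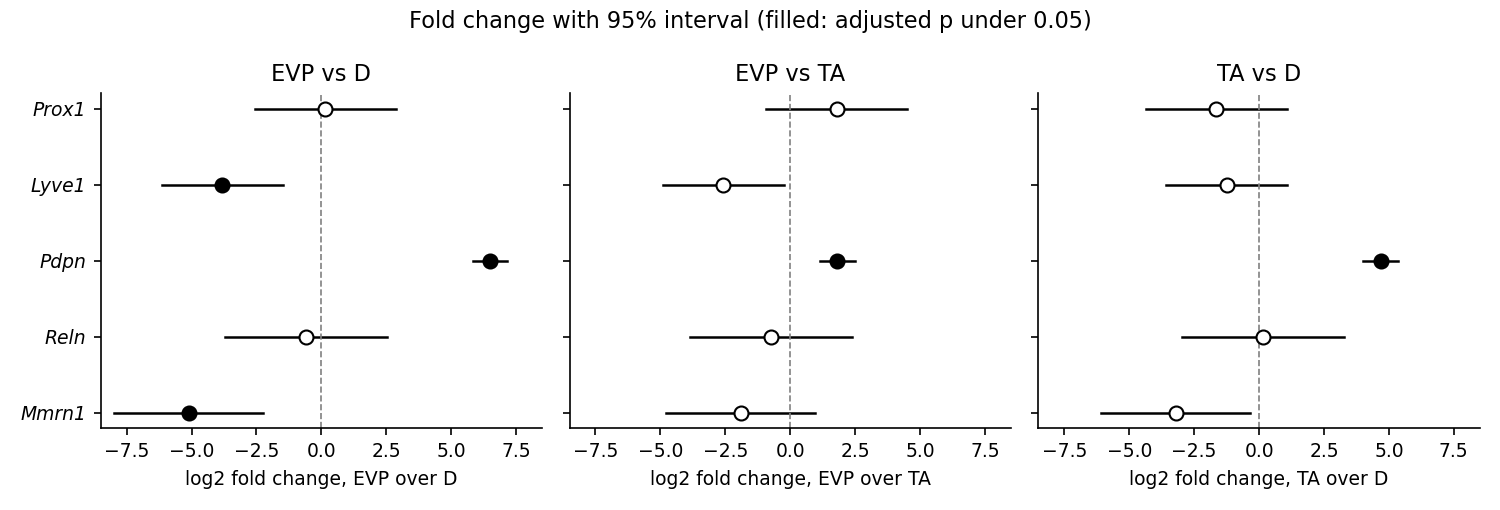
Log2 fold change of each member in the 3 comparisons, with 95% intervals from limma. Filled points have an adjusted p under 0.05; they are Lyve1, Pdpn and Mmrn1 for EVP vs D and Pdpn alone for EVP vs TA and for TA vs D.

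Read per kb of exon, so that genes can be compared, Pdpn made up nearly all of the members' summed level in EVP (98.4% to 100% by library, median 99.7%) and in TA (90.8% to 99.1%, median 97.5%). The make-up was different in D. There Lyve1 held a median of 34.5% (27.8% to 53.7%), Pdpn 28.9% (16.6% to 62.3%) and Mmrn1 18.4% (5.61% to 34.9%), and the ranges of these 3 overlapped. Prox1 held 1.18% (0.332% to 2.21%) and Reln 0.303% (0.0502% to 2.17%) in D, and these also overlapped each other. Every D library had a smaller share of Prox1 than of Lyve1 or Mmrn1, the members that were higher in D.

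The genes most like each member were named by Pearson correlation of log2(normalized count + 1) over the 15 libraries, among 25493 tested genes of unique name, as a description. The 15 points share populations, depth and background. For Pdpn they were Serpina3n (r = 0.995), Lrrn4cl, Serping1, Scara5 and Adam33, and 4 of these 5 were also among the top 5 without replicate 1 of each population. For Lyve1 they were Rasal1 (r = 0.923), Aim2, Irak2, Nts and Copg2, of which 3 remained. For Mmrn1 they were Lmtk2 (r = 0.909), Zfp711, Ssu2, Prex2 and Shroom2, of which 3 remained. For Prox1 they were Pomt2 (r = 0.863), Gm38056, Scg5, Gm42571 and Gm45151, of which 1 remained. For Reln they were Gm42514 (r = 0.904), Gm26811, Ryr2, Gm43766 and Fbxw7, of which 0 remained.

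Beside the members, 40 other genes of lymphatic biology in 6 groups were followed. Between EVP and D, 8 passed as higher in EVP and 17 as higher in D, or 20% and 42.5% beside 11.6% and 7.46% of all genes, and the median log2 fold change was −0.54 beside 0.46. Between EVP and TA, 3 passed as higher in EVP and 8 as higher in TA, or 7.5% and 20% beside 1.56% and 1.94% of all genes. This count of 11 fell to 5 without EVP replicate 2, to 7 without EVP replicate 3, TA replicate 1 or TA replicate 4, and to 0 without the 6 libraries of high background (limma, with 11 at an unadjusted p under 0.05 and 2 TA libraries left). Between TA and D, 7 passed as higher in TA and 11 as higher in D, or 17.5% and 27.5% beside 8.21% and 4.31% of all genes. The list was chosen with earlier results of these data known, so no excess over all genes can be read from these counts. In each comparison they include Kdr, which encodes a protein used to sort the cells. Many of these genes are used by blood endothelium too. The summed pan-endothelial genes were higher in D and the summed fibroblast genes higher in EVP, with the ranges given above, and the part of either list in these counts was not tested.

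Of 7 transcription factors of lymphatic specification, 3 passed as higher in D than in EVP and 0 as lower. Across all genes tested the shares were 7.46% and 11.6%. Sox18, which acts upstream of Prox1, averaged 72.8 normalized counts for EVP, 1625 for TA and 5398 for D (log2 fold change of EVP over D −6.93 ± 0.93 SE, limma adjusted p = 2.40e-05). Hhex (54.7 in EVP, 525 in D) and Gata2 (102 in EVP, 671 in D), which also act in lymphatic development, passed as well. All 3 also passed as lower in EVP than in TA, with overlapping libraries. That call was lost in 3 of 27 alternatives for Sox18, 7 for Hhex and 12 for Gata2. Single libraries whose removal ended it were EVP replicate 2 and TA replicates 1 and 4 for Hhex, and EVP replicates 1, 2, 3 and 5 and TA replicates 1, 2 and 4 for Gata2. Nr2f2, a venous factor that partners with Prox1, did not pass in any comparison, averaging 325 normalized counts for EVP, 489 for TA and 499 for D. Foxc2, Nfatc1 and Tbx1 did not pass either. The paper, using a Mann-Whitney test, names Nr2f2 among venous markers higher in D than in EVP and raised in TA. The limma test used here differs, with p-values adjusted over all genes tested.

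The VEGF-C axis, which drives lymphatic growth, divided between the populations. Of its 8 genes, 4 passed as higher in D than in EVP, the sort marker Kdr among them, and 3 as higher in EVP. Across all genes tested the shares were 7.46% and 11.6%. The receptor gene Flt4 (VEGFR3) averaged 39.1 normalized counts for EVP, 831 for TA and 3506 for D (EVP over D −6.77 ± 0.69 SE on the log2 scale, limma adjusted p = 1.21e-06). The co-receptor Nrp2 rose from 348 to 1347 to 2675, and both genes passed in all 3 comparisons. Kdr, which encodes VEGFR2 and was used to sort the cells, averaged 412 for EVP, 4200 for TA and 19832 for D, and as a sort marker it is no independent result. The ligand Vegfc was higher in D (928) than in EVP (153) or TA (243). The other ligand, Vegfd, went the opposite way, with 3998 in EVP, 1125 in TA and 16.1 in D (EVP over D 8.88 ± 0.81 SE, limma adjusted p = 3.64e-07). Ccbe1, which promotes the processing of VEGF-C, and Svep1, a matrix protein needed for lymphatic remodeling, were likewise higher in EVP (464 and 3058) than in D (2.5 and 14.1). These 3 genes had the same order of populations as the fibroblast list, whose part in them was not tested. Adamts3, the protease that cleaves VEGF-C, did not pass.

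**Figure D5:**
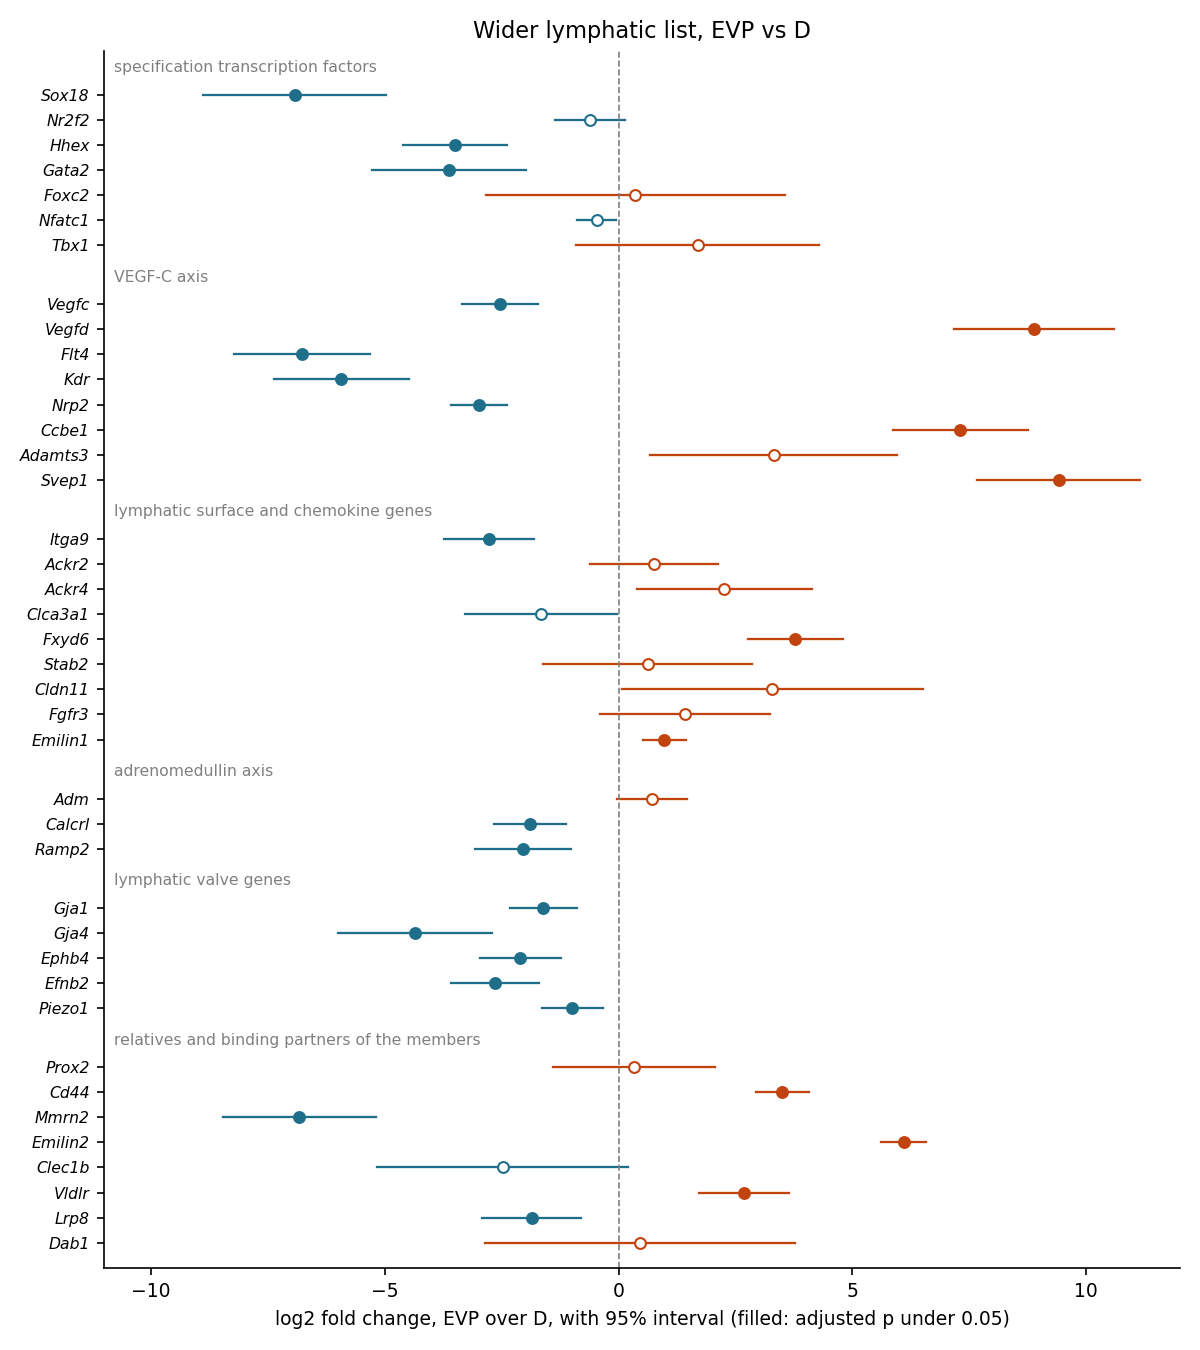
Log2 fold change of EVP over D, with 95% intervals from limma, for 40 further genes of lymphatic biology in 6 groups. Filled points have an adjusted p under 0.05; 17 lie to the left, higher in D, and 8 to the right, higher in EVP.

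Among 9 surface and chemokine genes, Fxyd6 and Emilin1 passed as higher in EVP than in D, and Itga9, an integrin of lymphatic valves, as higher in D. The scavenging receptor Ackr4 passed only for TA over D (103 against 9.12 normalized counts, limma adjusted p = 0.0209). That call was lost after quantile normalization, in edgeR and without TA replicate 2 or D replicate 3 (adjusted p up to 0.161). Ackr2, Clca3a1, Stab2, Cldn11 and Fgfr3 did not pass. In the adrenomedullin axis, the receptor genes Calcrl and Ramp2 were higher in D than in EVP (1773 against 474, and 2874 against 743), and the ligand Adm did not pass. All 5 valve genes passed as higher in D than in EVP, from Piezo1 (log2 fold change of EVP over D −0.99, limma adjusted p = 0.0298) to the connexin gene Gja4 (−4.35, limma adjusted p = 4.75e-04). Across all genes tested, 7.46% passed as higher in D. The paper counts Gja4 and Efnb2 as arterial and Ephb4 as venous markers, so these genes are not particular to lymphatic valves. For Piezo1 the libraries overlapped and the call was lost in 9 of 27 alternatives, among them those without EVP replicate 1, 2 or 4 or D replicate 1, 4 or 5 (adjusted p up to 0.109).

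The relatives and partners of the members did not follow them as a group. Mmrn2, an endothelial relative of Mmrn1, was at 125 normalized counts in EVP, 2400 in TA and 10377 in D (EVP over D −6.83 ± 0.78 SE on the log2 scale, limma adjusted p = 3.89e-06). Emilin2, of the same family, went the other way, with 7733 in EVP, 2544 in TA and 108 in D. Cd44, a hyaluronan receptor like Lyve1, was higher in EVP (6750) and TA (4358) than in D (648), opposite to Lyve1. Of the reelin receptors, Vldlr was higher in EVP (849) than in D (136), and Lrp8 was higher in D (212) than in EVP (71.5). The adaptor Dab1, Prox2 and Clec1b, which encodes the podoplanin receptor CLEC-2, did not pass in any comparison.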

How the data were processed

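RNA sequencing of 5 EVP, 5 TA and 5 D libraries was analyzed. The authors demultiplexed reads with bcl2fastq 2.17, aligned them with STAR 2.5.3a to GRCm38, counted them per gene on Ensembl release 91 and normalized them with DESeq2 1.10.1. The values deposited by the authors are a signal, namely read counts over the size factor of the library. Tables of the authors' comparisons (fold changes, p-values) were not used. Division of each library by its smallest value above 0 gave whole reads for 100% of values (tolerance 0.01).

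The 25549 genes averaging 5 or more normalized counts were fitted in limma 3.58.1 (R 4.3.3), with a mean-variance trend and 1 coefficient per population, on log2(value + 1). Genes passed at an adjusted p under 0.05. All 5 members were above the minimum mean. Exon lengths came from GENCODE release M21, and 5 of 5 member positions equaled that annotation. Alternatives were pseudocounts of 0.5 and 8, no minimum mean or one of 20, 2 other scalings, array weights, a replicate block, edgeR 4.0.16 and DESeq2 1.42.0 on whole reads, and libraries left out. The fits were tested on simulated data. There limma did not call every changed gene, so a gene that did not pass may still differ. Members and lists were chosen with earlier results of these data known. Named genes were the members, genes of the wider list that passed and some that did not, and the 5 genes most correlated with each member. Of the 41 genes of the wider list Ccl21a, with more than 1 row, was left out. A further gene planned for it is not reported here. The floor of 3 reads covers counting error only.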

Additional observations from a re-analysis of the deposited data

Results flagged for a closer look

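The libraries of each population were checked for a value far from the other 4, by Dixon's ratio of the gap to the range, for each of the 5 members. Of 15 such groups 4 held one. The ratio was taken on normalized counts, not on the log2 scale of the tests. Its chance rate of about 5% of groups holds for normally distributed values, which was not checked here. The 4 flagged values are therefore not read as more than chance gives. Of these values 3 were in a single library, EVP replicate 1, with 361.6 normalized counts of Prox1, 323 of Reln and 203.6 of Mmrn1. In that library 96.2% of the olfactory receptor genes had a read, the highest share of all libraries, and its depth of 5394356 reads was the lowest. The fourth was Mmrn1 in TA replicate 4, at 177.1 normalized counts, where 4.13% of the olfactory receptor genes had a read. In that library Mmrn1 was 129 times the olfactory receptor gauge per kb, and Lyve1 was 393 times that gauge. It also held the highest sums of the macrophage list (18147) and of the pan-leukocyte list (19756). The part of these in the Mmrn1 value was not tested.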

How the results depend on the processing

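Of the 3 members that passed for EVP vs D, Pdpn kept its call under all 27 alternatives. The number of members called was 1 in edgeR and 2 in DESeq2, and 2 to 3 with 1 library left out. In edgeR the log2 fold change of EVP over D was −3.11 for Lyve1 and −3.39 for Mmrn1 and neither passed, and in DESeq2 Mmrn1 was −3.11 and did not pass; the cause was not tested. With 1 library left out Lyve1 ranged from −4.40 to −2.96 (−4.66 without replicate 1 of every population), and it did not pass without EVP replicate 2 or 3 or D replicate 2 or 4. For EVP vs TA 1 member was called under all alternatives but the one, chosen after seeing the data, without the 6 libraries of high background, where limma called 0 members (1 at an unadjusted p under 0.05; Pdpn 1.54) and 0 of the wider list (11 at an unadjusted p under 0.05), with 2 TA libraries left. There edgeR and DESeq2 were not run. For TA vs D, 1 to 2 members were called with libraries left out. The second was Mmrn1, which passed without replicate 1 of every population (−3.92) and ranged from −3.90 to −2.57, not passing, with 1 library left out.

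The members that did not pass changed sign in some settings, without passing. For EVP over D, Prox1 was −0.017 with a pseudocount of 0.5, −0.30 after quantile normalization, −0.48 with array weights and −1.11 without the libraries of high background, and ranged from −0.85 to 1.28 with libraries left out. For EVP over TA it was −1.03 without those of high background. Reln was 0.77 for EVP over D in edgeR and 0.93 in DESeq2, and −1.71 to 0.37 with libraries left out. For EVP over TA it was 0.17, 0.26 and, without libraries of high background, 0.48, and −1.85 to 0.23 with libraries left out. For TA over D it was −0.71 after quantile normalization, −1.18 with array weights and −2.38 without libraries of high background, and −0.54 to 1.12 with libraries left out.

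The wider list called 24 to 32 of its genes for EVP vs D and 15 to 21 for TA vs D. For EVP vs TA it called 7 with no minimum mean, 5 with array weights, 7 in edgeR, 15 in DESeq2 and 5 to 11 with libraries left out (5 without EVP replicate 2 and 7 without EVP replicate 3, TA replicate 1 or TA replicate 4), against 11. Of 54 calls on genes of that list 37 held throughout and 0 reversed. The median log2 fold change of all genes for EVP over D moved from 0.46 to −0.05 after quantile normalization, and no call on a member changed. That setting called 1920 genes as higher in EVP and 1983 as higher in D, against 2952 and 1907. For EVP vs TA, scaling to the same total called 237 and 714, against 398 and 495. All calls for EVP vs TA numbered 1919 in DESeq2 and 1 without the libraries of high background, against 893.

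Deviations of same-numbered libraries correlated at −0.14 to 0.69, over 0.1 in 11 of 15 pairs. As this did not hold for every pair and the labels do not say what a number marks, the libraries were not treated as paired. With the number as a replicate block the members called were 3, 1 and 1, no call on a member changed, and the wider list called 27, 13 and 19. In the shallowest library 3 reads equal 10.5 normalized counts.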
